A study of Mus musculus with 74 samples.

Results

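The genes described here were 4 transcription factor genes of the C/EBP and IRF families (Cebpa, Cebpb, Cebpe and Irf8), the zinc finger repressor gene Gfi1 and 3 cytokine receptor genes (Csf1r, Csf3r and Csf2rb). They were chosen by name for their place in myeloid differentiation, 8 of the 21900 protein-coding genes of the annotation. The rule uses no measured value, though earlier results of these data were known when the genes were chosen. A contact of a gene was a listed interaction whose captured HindIII fragment holds an annotated start or end of that gene. Listed captured fragments held 16720 genes, and 7 of the 8 were among them; Gfi1 was on no listed captured fragment of any condition. All 7 had at least 1 contact within their chromosome in at least 1 list.

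The contacts came from promoter capture Hi-C of HPC-7, a mouse haematopoietic progenitor cell line that grows in stem cell factor (SCF). In this assay, crosslinked chromatin is cut and religated, and ligation products that hold a promoter are enriched with probes before sequencing. Ery shStag2 cells held an inducible hairpin RNA directed at Stag2, a subunit of the loop-forming complex cohesin. Ery Luc cells carried a hairpin against luciferase, which the cells do not encode, as the control. Both were given doxycycline, for 72 h in 3 of the libraries and 73 h in 1 Ery Luc library per its label, and were grown with SCF at 20 ng/ul and erythropoietin (EPO) at 4 U/l. HPC cells were not transduced and grew with SCF at 100 ng/ul. HPC therefore differed from both Ery conditions in transduction and doxycycline as well as in cytokines, and these cannot be told apart. The labels of these libraries give neither the hours with EPO nor the number of hairpins or clones.

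Each condition had 1 deposited list that pools 2 libraries, so differences between lists have no replicate check and were not tested. The lists held 130734 interactions in Ery shStag2, 123042 in Ery Luc and 112183 in HPC, of which 7.46%, 7.14% and 0.469% joined 2 chromosomes. Contacts over 800 kb made up 11.5% of those within a chromosome in Ery shStag2, 9.13% in Ery Luc and 2.09% in HPC. Read depth is not given in the sources used here, and its part in any difference between lists was not tested. The score of an interaction is the authors' own, with 5 as the lowest listed value, and it ranks contacts only within a list. Levels of RNA from these genes, and marker genes of the cell stage, were not analysed here, because the transcript identifiers were not paired with gene symbols in the tables used.

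Myeloid cells arise when progenitors raise a small set of transcription factors that open the genes of granulocytes and monocytes, among them the receptors through which colony-stimulating factors signal. C/EBP alpha is needed to form granulocyte and monocyte progenitors, C/EBP beta serves emergency granulopoiesis and macrophages, and C/EBP epsilon drives the last steps of neutrophil maturation. IRF8 directs monocyte and dendritic cell fates, and GFI1 represses monocytic genes in favour of neutrophils. CSF1R is the receptor of macrophage colony-stimulating factor, CSF3R that of granulocyte colony-stimulating factor, and CSF2RB the signalling chain shared by the receptors for GM-CSF, IL-3 and IL-5. Several of these genes are known to be controlled by distal enhancers, which reach their promoters through chromatin contacts. In erythroid differentiation this myeloid programme is normally silenced.

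Promoter sequence was available in the RefSeq table of GRCm38.p6 for 5 of the 8 genes, each running from 250 bases before to 50 bases after the transcript start. The promoters of Cebpb, Csf3r and Cebpa are shown because each lies inside the captured fragment whose contacts differed between conditions, at chr2:167688665-167688964, chr4:126024409-126024708 and chr7:35119043-35119342, all on the plus strand. Capitals mark matches to the TATA box letters TATAAA in Cebpb and Cebpa, and to the letters GAGGAA, shared by ETS factors and PU.1, in Csf3r.
Cebpb: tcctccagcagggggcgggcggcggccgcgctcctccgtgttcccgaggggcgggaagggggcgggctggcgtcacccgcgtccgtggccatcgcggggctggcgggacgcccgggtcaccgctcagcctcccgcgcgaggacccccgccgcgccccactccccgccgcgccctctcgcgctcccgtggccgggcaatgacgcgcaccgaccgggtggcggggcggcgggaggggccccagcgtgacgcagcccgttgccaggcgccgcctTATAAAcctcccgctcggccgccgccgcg
Csf3r: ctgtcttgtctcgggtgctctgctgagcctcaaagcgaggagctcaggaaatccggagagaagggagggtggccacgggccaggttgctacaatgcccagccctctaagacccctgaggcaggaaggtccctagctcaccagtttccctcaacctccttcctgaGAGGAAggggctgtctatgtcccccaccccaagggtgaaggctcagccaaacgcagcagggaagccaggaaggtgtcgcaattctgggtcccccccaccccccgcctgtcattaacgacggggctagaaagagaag
Cebpa: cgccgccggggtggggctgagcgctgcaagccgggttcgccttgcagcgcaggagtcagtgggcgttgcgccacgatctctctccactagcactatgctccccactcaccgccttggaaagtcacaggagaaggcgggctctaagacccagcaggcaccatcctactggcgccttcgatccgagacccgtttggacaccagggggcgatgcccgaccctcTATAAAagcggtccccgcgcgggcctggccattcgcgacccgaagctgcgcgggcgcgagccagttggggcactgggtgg

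The 5 motifs were searched on both strands. TATAAA occurred once in the promoters of Cebpa and Cebpb and in the first of the Irf8 promoters, and 13.6% of all 32851 promoters of this length held it. GAGGAA occurred once in the Csf3r promoter, against 28.3% of all promoters with a match. The C/EBP letters TTNCNNAA occurred in 1 of the Gfi1 promoters and in no other promoter of the 5 genes, against 40.7% of all promoters. The RUNX letters TGTGGT and the GATA factor letters AGATAA had 0 matches in these promoters, and 16.8% and 11.2% of all promoters held them. GC content was 80.7% for Cebpb, 67.3% for Cebpa and 60.7% for Csf3r, and the median of all promoters was 52.7%. These are matches of letters and say nothing of binding.

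Across the 8 genes, the lists held 49 contacts within the chromosome in Ery shStag2, 33 in Ery Luc and 47 in HPC. Cebpb and Csf3r had most contacts in Ery shStag2, Cebpa and Csf1r had most in HPC, and Cebpe was contact-rich in every list. Csf2rb had contacts only in Ery shStag2, with 3, and Irf8 only in HPC, with 1. The 129 entries fell on 83 different pairs of fragments, of which 15 stood in all 3 lists, 13 of Cebpe and 2 of Cebpb. Pairs found in a single list numbered 25 in Ery shStag2, 4 in Ery Luc and 23 in HPC. A further 7 pairs were shared by the Ery lists only, 7 by Ery Luc and HPC only, and 2 by Ery shStag2 and HPC only. This split was not made for all genes. Of all contacts within a chromosome, 44.2% of those in Ery Luc and 41.1% of those in Ery shStag2 were also listed in HPC. Of those in Ery shStag2, 45% were also listed in Ery Luc, so pairs missing from another list were common.

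**Figure D1:**
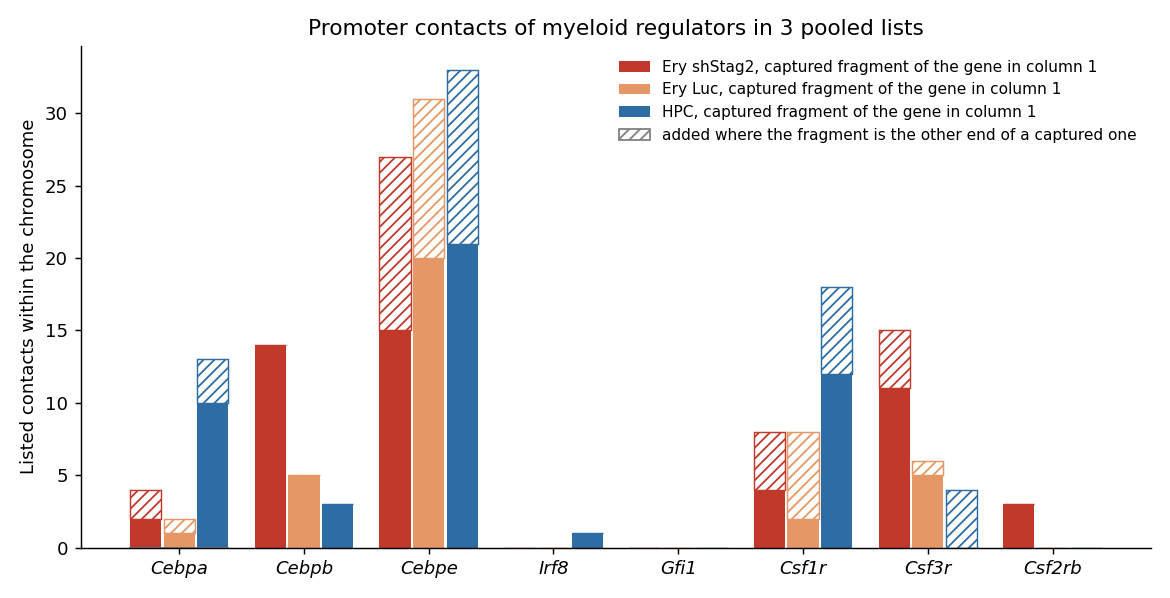
Number of listed contacts within the chromosome (vertical axis) for each of the 8 genes, with bars for Ery shStag2, Ery Luc and HPC from left to right. Solid parts count contacts from the captured fragment of the gene. Hatched parts add contacts in which that fragment is the other end of another captured one. The solid parts of Cebpb (14, 5 and 3) and Csf3r (11, 5 and 0) were highest in Ery shStag2, and those of Cebpa (2, 1 and 10) and Csf1r (4, 2 and 12) in HPC. With the hatched parts Csf3r reached 15, 6 and 4. Each bar is 1 pooled list, so no error bar can be drawn.

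The Cebpb fragment, chr2:167681776-167692188, is 10413 bp long and holds the whole gene. It had 14 contacts in Ery shStag2, 5 in Ery Luc and 3 in HPC. All of them lay at higher coordinates, 127 to 245 kb from the captured fragment, centre to centre, in Ery shStag2, 154 to 216 kb in Ery Luc and 176 to 208 kb in HPC. Contacts of Cebpb thus went to a single stretch of chromosome 2 in every condition, and the stretch covered by the list was widest in Ery shStag2.

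The contact at 208 kb, with the fragment chr2:167893735-167897216, stood in all 3 lists and scored 23.39 in Ery shStag2, 19.09 in Ery Luc and 7.3 in HPC. It had the highest score of any Cebpb contact in both Ery lists. Its neighbour at 202 kb, chr2:167883722-167893734, scored 8.96, 14 and 8.8 in the same lists and ranked first for Cebpb in HPC. Neither fragment holds the start or end of a protein-coding gene. The Ery lists shared 3 more pairs that HPC lacked, at 154, 194 and 216 kb, with scores of 5.78, 9.64 and 6.5 in Ery shStag2 and of 5.16, 9.05 and 6.56 in Ery Luc.

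Another 9 pairs of Cebpb were listed in Ery shStag2 alone, with scores between 5.36 and 8.46. The strongest of these, at 186 kb, lay just below the shared contacts. The farthest, at 245 kb, was with a captured fragment that holds an annotated start or end of Ptpn1, the gene of a protein tyrosine phosphatase that acts on insulin and cytokine receptor signalling. HPC had 1 pair of its own, at 176 kb with a score of 5.56. Other captured fragments, among them those of Tmem189 and Ube2v1, contacted the same 126 kb stretch 6 times in Ery shStag2, 5 times in Ery Luc and 3 times in HPC. Captured fragments other than that of Cebpb within 1 Mb of it had 142 contacts in Ery shStag2, 103 in Ery Luc and 84 in HPC, so the neighbourhood was ordered like Cebpb itself. Cebpb also had 1 contact with another chromosome in Ery shStag2 (score 5.49) and 1 in Ery Luc (score 5.45, with a Meaf6 fragment on chromosome 4), against 0 in HPC.

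**Figure D2:**
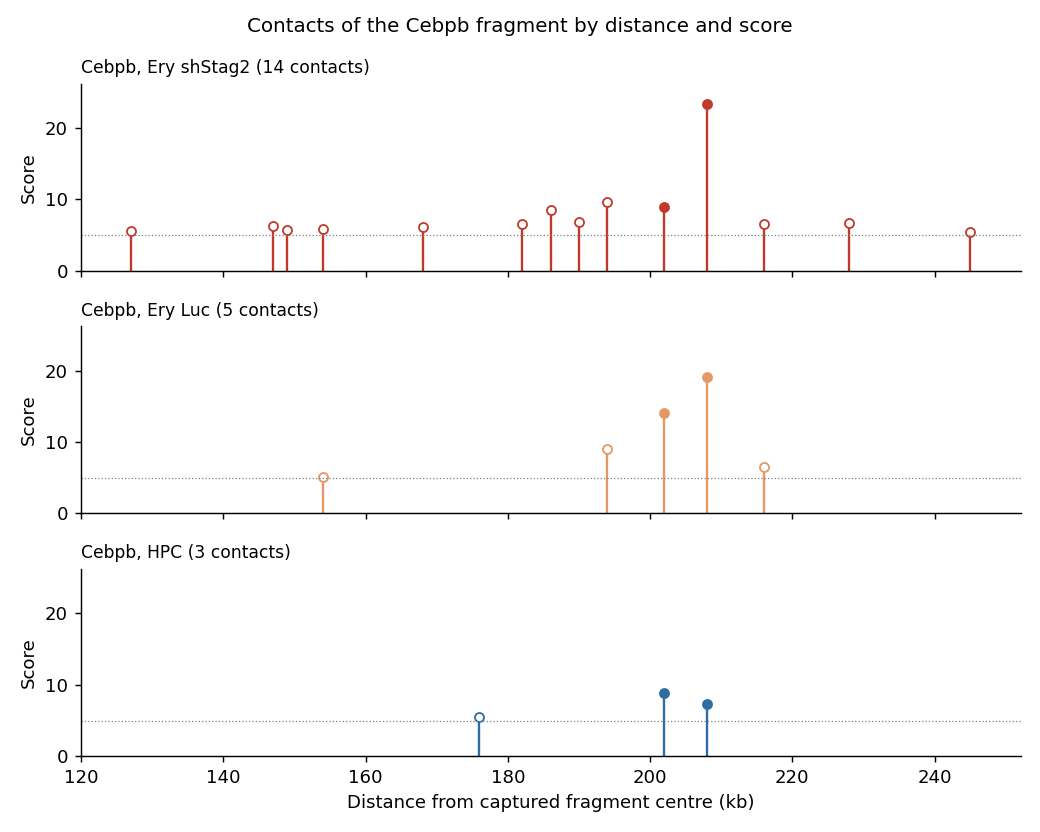
Score of each Cebpb contact (vertical axis) against its distance from the captured fragment in kb (horizontal axis), in panels for Ery shStag2, Ery Luc and HPC from top to bottom. Filled points are pairs listed in all 3 conditions, open points are pairs listed in fewer, and the dotted line is the lowest listed score of 5. The shared contacts at 202 and 208 kb stand in every panel, and Ery shStag2 adds weaker contacts on both sides of them.

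Csf3r was captured on a fragment with its start, chr4:126020637-126027037, and on a fragment with its end, chr4:126044550-126048276, which also holds Mrps15, a mitochondrial ribosomal protein gene. Together they had 11 contacts in Ery shStag2, 5 in Ery Luc and 0 in HPC. The start fragment accounted for 7, 3 and 0 of these and the end fragment for 4, 2 and 0. Some other ends were counted from both fragments, and the number of different other ends was 8 in Ery shStag2 and 5 in Ery Luc.

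Counted from its own captured fragments, every Csf3r contact was long and toward lower coordinates. Distances were 870 to 934 kb in Ery shStag2 and 881 to 1010 kb in Ery Luc. The highest score of both Ery lists, 11.38 in Ery shStag2 and 10.71 in Ery Luc, belonged to the contact of the start fragment with chr4:125123245-125135844, 894 kb away. That fragment is itself captured and holds an annotated start or end of Zc3h12a, which encodes an RNase that degrades inflammatory mRNAs. The end fragment contacted a Meaf6 fragment, chr4:125109340-125115549, with a score of 6.03 in Ery shStag2 and 8.09 in Ery Luc. Meaf6 encodes a subunit of histone acetyltransferase complexes. The Ery lists shared 4 pairs, Ery shStag2 had 7 of its own, and Ery Luc had 1, with a fragment of Gnl2 (score 5.73).

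For the end fragment, which Csf3r shares with Mrps15, the absence from the HPC counts depended on which fragment of a pair stood in the capture column. Pairs of 2 captured fragments made up 18.5% of interactions in Ery shStag2, 19.5% in Ery Luc and 21.4% in HPC, and 0 of them were listed in both directions. With contacts counted from either fragment, Csf3r had 15 in Ery shStag2, 6 in Ery Luc and 4 in HPC. These include nearer contacts of the end fragment toward higher coordinates. They were at 10.3 kb (score 6.46 in Ery shStag2 and 9.33 in HPC) and at 272 kb (score 6.09, Ery shStag2 only). All of these HPC contacts met the end fragment and none met the start fragment. Among them were contacts from a fragment 943 kb away with a score of 10.37 and from the Zc3h12a fragment with a score of 5.04. In the stretch of 148 kb that spans these other ends, the fragments of Gnl2, Meaf6 and Zc3h12a among them, Csf3r thus had 13 contacts in Ery shStag2, 6 in Ery Luc and 3 in HPC. Other captured fragments contacted that stretch 31 times in Ery shStag2, 23 times in Ery Luc and 25 times in HPC. Within 1 Mb of Csf3r, other captured fragments had 186, 154 and 235 contacts in the same order, and here HPC was highest.

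Cebpe had the most contacts of the 8 genes in every list, with 15 in Ery shStag2, 20 in Ery Luc and 21 in HPC. Its captured fragment, chr14:54711076-54714562, holds the end coordinate of the gene, whose strand the table used does not give. Nearly all contacts fell in 1 block of 92.3 kb, chr14:54771125-54863396, with 13 in Ery shStag2, 19 in Ery Luc and 20 in HPC. The block holds starts or ends of Homez, a homeobox gene, of Rnf212b and of Slc7a8, which encodes an amino acid transporter.

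The 13 pairs listed in all conditions made up every contact that Ery shStag2 had in the block. A fragment at 71.2 kb, chr14:54783389-54784616, led both Ery lists with scores of 10.44 in Ery shStag2 and 16.66 in Ery Luc, and had 20.31 in HPC. The adjoining fragment at 72.9 kb, chr14:54784617-54786812, scored 9.91, 16.6 and 24.43 and led the HPC list of Cebpe. Both lie at the near edge of the block.

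Going outward, the shared pair at 77.4 kb scored 7 in Ery shStag2, 12.31 in Ery Luc and 13.63 in HPC. Those at 82 and 87.1 kb scored 6.46 and 5.27 in Ery shStag2, 7.6 and 8.45 in Ery Luc, and 11.15 and 12.25 in HPC. The pair at 91.2 kb scored 5.09, 5.5 and 10.8 in the same lists. It was the weakest shared pair in both Ery lists and stood close to the lowest listed score there. At 98.5 and 101 kb the scores were 7.7 and 9.26 in Ery shStag2, 8.28 and 8.48 in Ery Luc, and 12.93 and 14.11 in HPC. At 110, 111 and 116 kb they were 6.69, 7.12 and 5.86 in Ery shStag2, 10.81, 9.42 and 9.63 in Ery Luc, and 13, 12.19 and 13.68 in HPC. The far edge, at 141 kb with the starts or ends of Homez and Rnf212b and at 148 kb, scored 8.08 and 9.74 in Ery shStag2, 7.27 and 9.31 in Ery Luc, and 5.98 and 9.56 in HPC. Within the Ery shStag2 list the pair at 148 kb thus had the third highest score of the Cebpe contacts, while 11 contacts scored above it within the HPC list.

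Ery Luc and HPC shared another 6 pairs that Ery shStag2 lacked, all in the block between 92.2 and 135 kb. Their scores were 5.08 to 8.65 in Ery Luc and 5.12 to 9.24 in HPC. A score of at least 10 was reached by 1 Cebpe contact in Ery shStag2, 4 in Ery Luc and 11 in HPC, and the median score was 7, 8.36 and 10.8. Of all contacts within a chromosome, 12.3% scored at least 10 in Ery shStag2, 11.8% in Ery Luc and 14.5% in HPC, and whether a score means the same in each list was not tested. Other captured fragments contacted the block 10 times in Ery shStag2, 20 times in Ery Luc and 12 times in HPC. Outside it, Ery shStag2 and HPC listed a pair at 387 kb with starts or ends of Ap1g2 and Thtpa, scoring 5.13 and 5.18. Ery shStag2 alone listed a contact at 487 kb toward lower coordinates (score 5.75) and 1 with chromosome 1 (score 8.18), and Ery Luc alone 1 at 373 kb (score 5.05).

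As the other end of captured fragments, the Cebpe gene was contacted 12 times in Ery shStag2, 13 times in Ery Luc and 15 times in HPC. A captured fragment at 105 kb, inside the block and with no gene start or end, scored 13.57 in Ery shStag2, 15.94 in Ery Luc and 25.98 in HPC. The captured fragment of Slc7a8 and Rnf212b at 65.1 kb scored 10.23, 13.07 and 24.57. On the other side, the fragment of Acin1 at 24.6 kb scored 8.43, 10.46 and 10.52, and that of Ajuba at 135 kb scored 6.15, 6.94 and 10.71. Another 4 captured fragments contacted Cebpe in all 3 lists. Those of Homez at 160 kb and Bcl2l2 at 170 kb scored 7.77 and 6.12 in Ery shStag2, 8.99 and 6.68 in Ery Luc, and 12.61 and 8.82 in HPC. Those of Efs at 214 kb and Zfhx2 at 378 kb scored 7.38 and 5.09 in Ery shStag2, 5.56 and 6.12 in Ery Luc, and 6.95 and 5.99 in HPC. Some of these contacts met a second Cebpe fragment that is not captured, and 12, 11 and 12 met the captured one. Counted from either fragment of a pair of captured fragments, Cebpe had 27 contacts in Ery shStag2, 31 in Ery Luc and 33 in HPC.

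**Figure D3:**
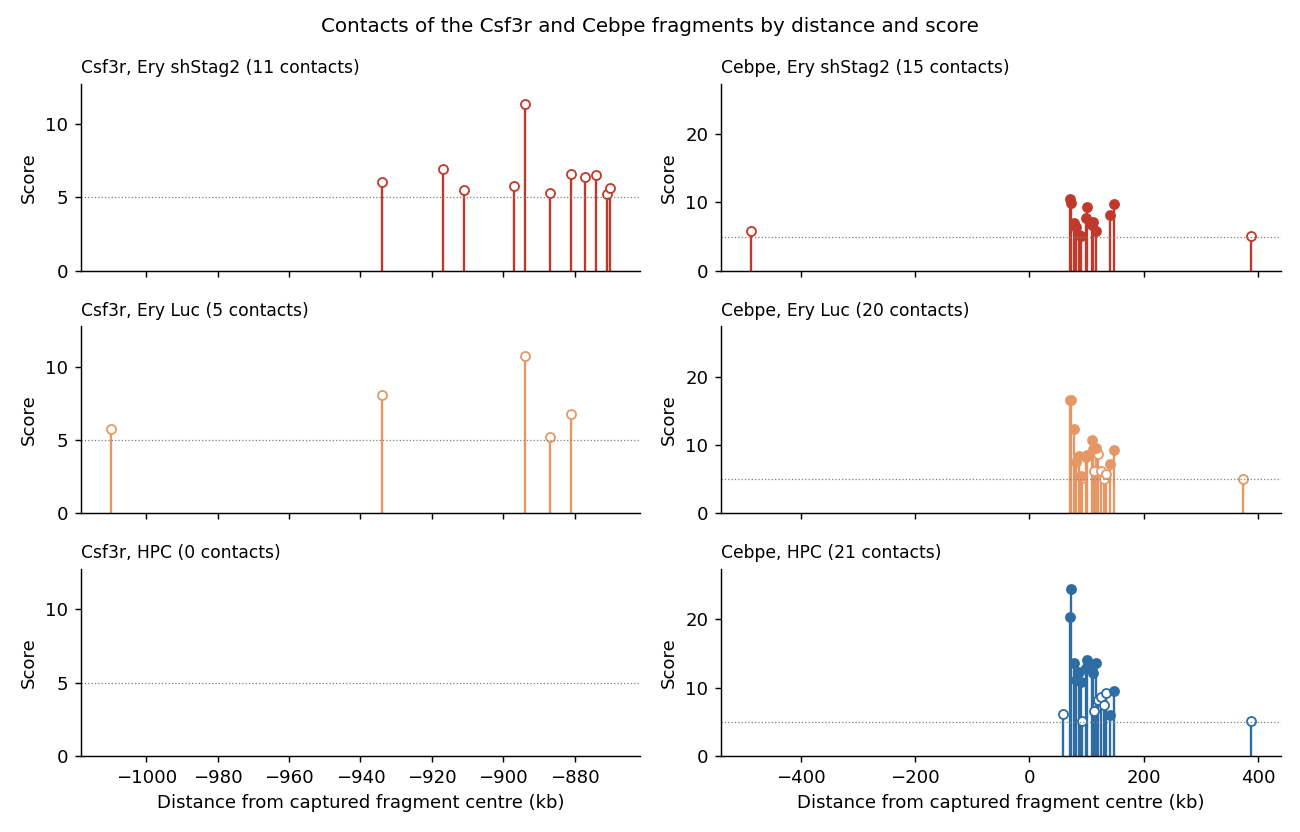
Score of each contact of Csf3r and Cebpe (vertical axis) against its distance from the captured fragment in kb (horizontal axis, negative toward lower coordinates), with Ery shStag2, Ery Luc and HPC from top to bottom. Filled points are pairs listed in all 3 conditions, open points pairs listed in fewer, and the dotted line is the lowest listed score of 5. Csf3r contacts, counted from its own captured fragments, lie 870 to 1010 kb away in the Ery conditions, with 0 in HPC. Cebpe contacts gather in 1 block that has 13, 19 and 20 contacts.

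Cebpa had 2 contacts in Ery shStag2, 1 in Ery Luc and 10 in HPC. Its captured fragment, chr7:35113445-35121370, holds the start of the gene and ends before the gene does. In HPC, 7 of the 10 lay 57.5 to 98 kb away toward lower coordinates, in a stretch of 46.1 kb, chr7:35018627-35064773. The 2 with the highest scores were at 57.5 kb (chr7:35055123-35064773, score 9.88) and 63.8 kb (chr7:35052021-35055122, score 7.51). The first of these is a captured fragment that holds an annotated start or end of Cebpg, the neighbouring gene of the C/EBP family member C/EBP gamma.

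The same 63.8 kb contact was the only one of Cebpa within the chromosome in Ery Luc, with a score of 5.06. The 2 contacts in Ery shStag2 lay 692 and 734 kb away, with scores of 5.47 and 5.82, so the stretch at Cebpg had 0 contacts there, against 1 in Ery Luc and 7 in HPC. Other captured fragments contacted the same stretch 5 times in each of the 3 lists. Captured fragments within 1 Mb, Cebpa left out, had 133 contacts in Ery shStag2, 129 in Ery Luc and 138 in HPC. The count of Cebpa thus differed while that of its neighbours was nearly equal. The other HPC contacts of Cebpa were with fragments at 726 kb (Lsm14a, score 5.99), 147 kb (score 5.5) and 200 kb (Gpatch1, score 6.5). Counted from either fragment, Cebpa had 4 contacts in Ery shStag2, 2 in Ery Luc and 13 in HPC. The HPC contacts added were from Lrp3, from the Cep89 fragment and from Pdcd5 (score 7.96). Those added in Ery shStag2 were at 31.7 kb (score 5.38) and at 890 kb (Gpi1, score 5.54), both toward lower coordinates. The one added in Ery Luc was at 884 kb on the same side (score 5.85). Ery Luc also listed 2 contacts of Cebpa with chromosome 4, with scores of 6.57 and 5.86.

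Csf1r had 4 contacts in Ery shStag2, 2 in Ery Luc and 12 in HPC. Its captured fragment, chr18:61093158-61107811, is 14654 bp long and holds the start coordinate of the gene. In HPC, 7 contacts reached 35.7 to 95.1 kb toward higher coordinates, past the end coordinate of Csf1r. The contact at 73.4 kb had the highest score of them, 7.59. Another HPC contact, 16.8 kb toward lower coordinates with a score of 6.41, was with a fragment of Pdgfrb, the neighbouring gene of a platelet-derived growth factor receptor. The remaining 4 lay 238 to 377 kb toward lower coordinates.

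In the Ery lists all contacts of Csf1r lay toward lower coordinates, at 240 to 434 kb in Ery shStag2 and at 278 and 370 kb in Ery Luc. Their highest scores were 6.68 in Ery shStag2 and 6.84 in Ery Luc. Only the pair at 377 kb was shared, between Ery shStag2 (score 5.18) and HPC (score 6.32). Contacts on the side of higher coordinates were nevertheless present in the Ery lists when Csf1r was the other end. The fragment of Hmgxb3 at 76 kb contacted Csf1r with a score of 6.35 in Ery shStag2, 6.19 in Ery Luc and 7.68 in HPC, and a fragment at 45.5 kb with 6.01, 5.42 and 9.55. On the lower side, Cd74, the gene of the MHC class II invariant chain, contacted Csf1r with a score of 8.78 in Ery shStag2 and 5.35 in Ery Luc and was not listed in HPC. Counted from either fragment, Csf1r had 8 contacts in Ery shStag2, 8 in Ery Luc and 18 in HPC.

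**Figure D4:**
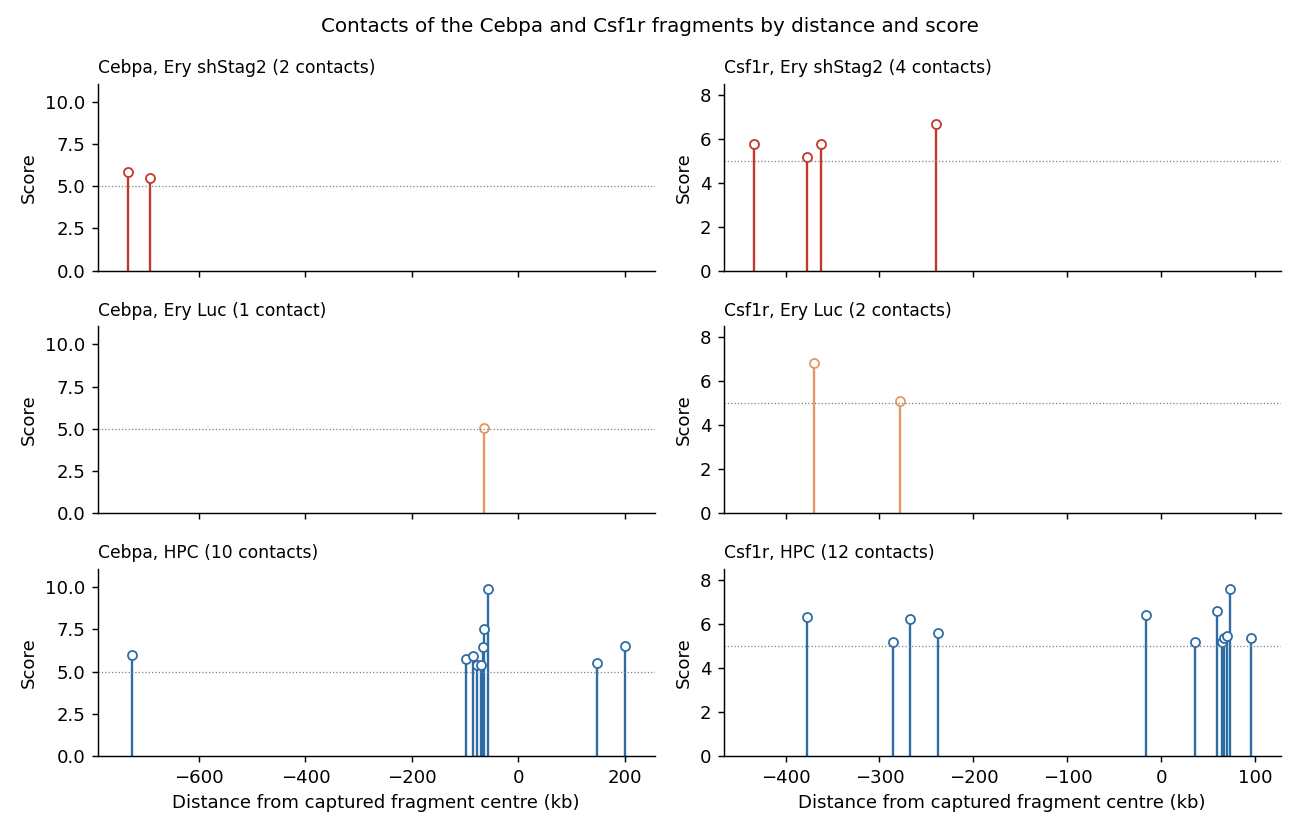
Score of each contact of Cebpa and Csf1r (vertical axis) against its distance from the captured fragment in kb (horizontal axis, negative toward lower coordinates), with Ery shStag2, Ery Luc and HPC from top to bottom. Filled points would be pairs listed in all 3 conditions, of which these genes have none, so all points are open, and the dotted line is the lowest listed score of 5. HPC has 10 Cebpa and 12 Csf1r contacts, and those of Cebpa between 57.5 and 98 kb and those of Csf1r between 35.7 and 95.1 kb are matched in the Ery panels by 1 Cebpa contact in Ery Luc and by 0 Csf1r contacts.

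Csf2rb had 3 contacts in Ery shStag2, 0 in Ery Luc and 0 in HPC. The one with the highest score, 7.93, was at 81.2 kb with the captured fragment of Ncf4, which encodes a subunit of the phagocyte NADPH oxidase. The others were at 150 kb with Ift27, a gene of intraflagellar transport (score 6), and at 393 kb (score 5.26). In Ery Luc the captured fragment of Csf2rb, chr15:78322730-78327511, had a contact with chromosome 6, which had a score of 16.42. A second Csf2rb fragment, which is not captured, was the other end of 1 contact at 176 kb in Ery shStag2 (C1qtnf6, score 5.56) and of 1 at 200 kb in Ery Luc (score 7.14), against 0 in HPC. Other captured fragments within 1 Mb had 304 contacts in Ery shStag2, 223 in Ery Luc and 222 in HPC, so the region around Csf2rb also had most contacts in Ery shStag2.

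Irf8 had 0 contacts within its chromosome in Ery shStag2, 0 in Ery Luc and 1 in HPC. That contact was at 70.2 kb, with a captured fragment that holds starts or ends of Cox4i1 and Emc8, and scored 5.16, close to the lowest listed value. Ery shStag2 listed 1 contact of Irf8 with chromosome 7 (score 5.18). The fragment, chr8:120732907-120737243, was therefore listed but nearly without partners, while other captured fragments within 1 Mb had 113 contacts in Ery shStag2, 84 in Ery Luc and 65 in HPC. Other captured fragments within 1 Mb of Gfi1 had 177, 222 and 197 contacts in the same lists.

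Distal enhancers of these genes are known from myeloid cells, such as one 37 kb downstream of Cebpa and one 56 kb downstream of Irf8. Contacts were sought within 5 kb of 7 such positions, for Cebpa, Irf8 at 4 offsets, Gfi1 and Cebpe. They numbered 0 at every position in Ery shStag2, Ery Luc and HPC. For Gfi1 no contact could be listed, and for Irf8 the count rests on 1 contact in all. The Cebpe position was 6 kb from the annotated start, close to the captured fragment. The nearest contact from that fragment in any list was at 59 kb, in HPC, so the 0 there says little about an enhancer contact. A contact below the lowest listed score would not appear, so weaker contacts at these positions were not detectable in these lists.

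Growth with EPO was examined by setting Ery Luc beside HPC, with the differences named above. A difference of at least 2 contacts counted as more or fewer. Of the 6 genes with a contact in either list, Csf3r (+5) and Cebpb (+2) had more in Ery Luc, and 34.2% of 14956 genes did. Cebpa (−9) and Csf1r (−10) had fewer, and 27.6% of all genes did. Counted from either fragment, 2 genes had more (36.2% of all genes did) and 3 had fewer, since Cebpe (−2) then joined them (28.1% of all genes did). The count of 2 of 6 in each direction was near that background and is no result about the group. Among single genes, 5.56% of all genes lost as many contacts as Cebpa or more, and 4.51% lost as many as Csf1r. The median difference was −1 over the 6 genes and 1 over all genes. The genes' contacts in Ery Luc were 41.2% of those in the pair of lists (33 of 80; exact 95% interval 30.4% to 52.8%, counting error only). Over all contacts within a chromosome Ery Luc held 50.6%. Of the 33 contacts in Ery Luc, 22 were also listed in HPC, or 66.7% (48.2% to 82%), against 44.2% of all contacts of Ery Luc. Cebpe held 19 of those 22, and without it 3 of 13 contacts were also listed in HPC, or 23.1% (5.04% to 53.8%). Since Cebpe held most of the shared contacts, leaving it out had to lower the percent. No gene was left out of the value over all contacts, so the 2 are not alike.

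Stag2 knock-down in EPO-grown cells was examined by setting Ery shStag2 beside Ery Luc. Cebpb (+9), Csf3r (+6), Csf2rb (+3) and Csf1r (+2) had more contacts in Ery shStag2, 4 of 6 genes, and 31% of 15360 genes did. Cebpe (−5) alone had fewer, and 25.5% of all genes did. Of all genes, 4.14% gained as many contacts as Cebpb, 8.83% as many as Csf3r, and 8.91% lost as many as Cebpe. The median difference was 2.5 over the 6 genes and 0 over all genes. Counted from either fragment, the genes with more became Cebpa, Cebpb, Csf3r and Csf2rb, and 32% of all genes had more. Cebpe (−4) still had fewer, as did 26.7% of all genes. Ery shStag2 held 59.8% of the summed contacts of the genes (49 of 82; 48.3% to 70.4%), against 51.4% over all contacts within a chromosome. Of its 49 contacts, 22 were also listed in Ery Luc, or 44.9% (30.7% to 59.8%), and 45% of all contacts were. Without Cebpe these were 9 of 34, or 26.5% (12.9% to 44.4%), with the limit given above for leaving out Cebpe. With other ends within 10 kb joined, Cebpb had 3 contacts in Ery shStag2 against 2 in Ery Luc, Csf3r 4 against 3 and Cebpe 4 against 2.

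With a score of at least 7, the genes had 14 contacts in Ery shStag2, 18 in Ery Luc and 21 in HPC, and with at least 10 they had 3, 7 and 11. All captured fragments together had 45975, 42597 and 46698 contacts at the first minimum and 14924, 13524 and 16239 at the second. The 8 genes together thus had fewer such contacts in Ery shStag2 than in Ery Luc, while the whole lists had more. At the first minimum this sum rests on Cebpe (8 against 13). Csf3r (1 against 2) also had fewer there, and Cebpb (4 against 3) and Csf2rb (1 against 0) had more. For Cebpb, 4, 3 and 2 contacts scored at least 7 in Ery shStag2, Ery Luc and HPC, for Csf3r 1, 2 and 0, and for Cebpe 8, 13 and 16. A minimum score carries the limit that the score ranks contacts only within a list.

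The comparison of Ery shStag2 with HPC shares its lists with the other comparisons. Cebpb (+11), Csf3r (+11) and Csf2rb (+3) had more contacts in Ery shStag2, 3 of 7 genes, and 37.7% of 15118 genes did. Cebpa (−8), Csf1r (−8) and Cebpe (−6) had fewer, and 26.5% of all genes did. A gain as great as that of Cebpb or Csf3r was seen for 4.19% of all genes, and a loss as great as that of Cebpa or Csf1r for 6.55%. Counted from either fragment, the same 3 genes had more (39.3% of all genes did) and the same 3 had fewer (27.2% did). The median difference was −1 over the 7 genes and 1 over all genes. The summed contacts were 51% in Ery shStag2 (49 of 96; 40.6% to 61.4%), against 52% over all contacts within a chromosome. Of the 49, 17 were also listed in HPC, or 34.7% (21.7% to 49.6%), against 41.1% of all. Without Cebpe these were 3 of 34, or 8.82% (1.86% to 23.7%), again with the limit given for leaving out Cebpe.

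**Figure D5:**
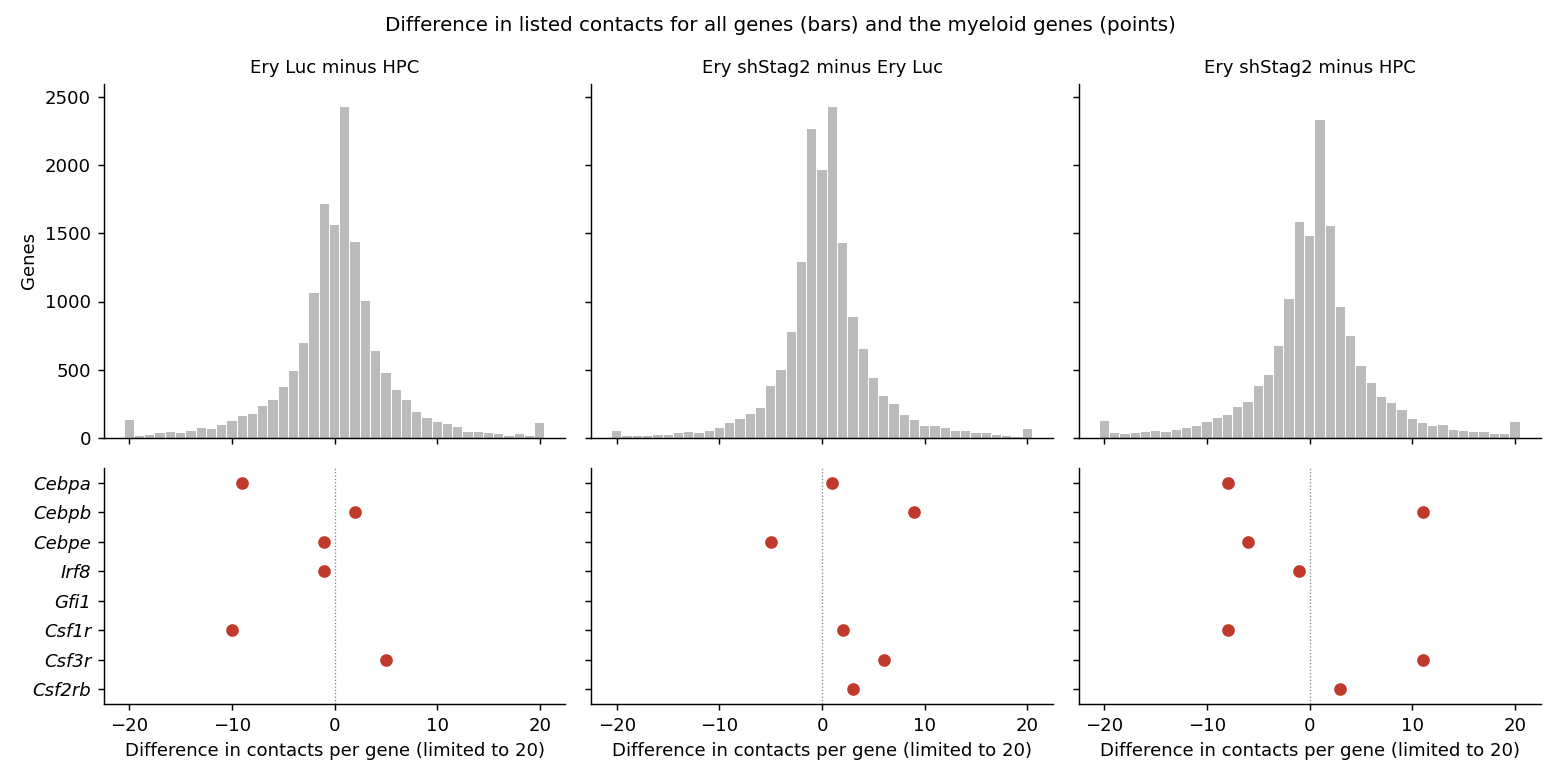
Upper panels show how many genes (vertical axis) had each difference in contacts (horizontal axis, contacts per gene, with differences beyond 20 collected in the end bars) for Ery Luc minus HPC, Ery shStag2 minus Ery Luc and Ery shStag2 minus HPC. Lower panels show the same difference for each myeloid gene with a contact in either list. Cebpa and Csf1r lie at −9 and −10 in the first comparison, and Cebpb and Csf3r at +11 in the last.

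Genes of the same pathway, from lists of 34 other myeloid transcription factors, 25 other cytokine receptors and 20 ligands and signal adaptors, were counted in the same way. For transcription factors, 14 of 31 had more and 9 fewer contacts in Ery shStag2 than in Ery Luc (31% and 25.5% of all genes), and 14 of 30 had more and 8 fewer in Ery Luc than in HPC (34.2% and 27.6% of all genes). For receptors these were 5 and 4 of 17, and 7 and 3 of 16. For ligands and adaptors they were 6 and 7 of 17, and 7 and 7 of 17. In Ery shStag2 against HPC, 16 of 31 transcription factors had more and 10 fewer, as did 8 and 4 of 17 receptors and 5 and 7 of 17 ligands and adaptors (37.7% and 26.5% of all genes). A difference of at least 5 contacts in some comparison was found for 38 of the 79 genes. Of all genes, 13.6% gained at least 5 in Ery Luc against HPC, and 8.91% lost at least 5 in Ery shStag2 against Ery Luc. The share of all genes with such a difference in any comparison was not computed, so the 38 are no result about the pathway.

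Counts of these 38 are given in the order Ery shStag2, Ery Luc and HPC. Highest in Ery shStag2 or in both Ery lists were the factor genes Jun (53, 47 and 23), Runx1 (17, 11 and 4), Bcl6 (21, 17 and 12), Nfil3 (22, 20 and 17), Egr1 (9, 5 and 2), Egr2 (7, 5 and 0), Id2 (8, 3 and 2) and Mitf (6, 6 and 0). Receptor genes of that order were Kit (13, 6 and 6), Flt3 (14, 13 and 6), Ifnar2 (22, 19 and 16) and Epor (17, 17 and 11). Among adaptors it held for Ptpn6 (12, 4 and 2) and Socs1 (7, 7 and 2). HPC was highest for Klf2 (2, 0 and 11), Irf1 (7, 1 and 9), Irf5 (2, 4 and 10), Hhex (7, 19 and 22), Fos (10, 15 and 16), Il6ra (8, 13 and 14), Ifnar1 (10, 11 and 16), Csf1 (4, 3 and 10), Il5 (14, 11 and 22), Il6 (45, 42 and 49) and Jak1 (21, 17 and 25). Ery Luc alone was highest for Spi1 (6, 28 and 24), Rara (5, 8 and 2), Stat5a and Stat5b on 1 shared fragment (1, 6 and 3), Tgfbr2 (13, 17 and 12), Flt3l (5, 14 and 11), Jak2 (7, 17 and 11), Tyk2 (4, 9 and 2) and Cbl (15, 17 and 11). Myb had 32, 40 and 40 contacts, Batf3 25, 20 and 23, Tnfrsf1a 11, 6 and 11, and Cish 26, 21 and 24. Besides Stat5a and Stat5b, some of these genes share a captured fragment with another gene, so their counts are not theirs alone. These are Spi1 (with Mybpc3), Rara (Cdc6 and Gm46294), Flt3 (Urad), Ifnar2 (Il10rb), Epor (Swsap1), Ptpn6 (Grcc10), Socs1 (Tnp2) and Flt3l (Rpl13a).

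Of the pathway genes on another fragment, the one most like each gene with at least 5 contacts in a list was found over the 3 lists by the Euclidean distance of log2(count + 1). For Cebpb this was Ptpn6, a phosphatase that damps cytokine signalling, at a distance of 0.533. For Csf3r it was Egr2, a macrophage-associated zinc finger factor, at 0.585. Csf1r was most like Csf1, the gene of its own ligand, with 4, 3 and 10 contacts in Ery shStag2, Ery Luc and HPC and a distance of 0.48. Cebpe was most like Il4ra (16, 18 and 17 contacts; 0.335), and Cebpa most like Tfeb (2, 1 and 5 contacts; 0.874). These distances rest on 3 values each, and none was taken for Irf8, Gfi1 and Csf2rb, which had fewer contacts. Among the most alike genes, Ptpn6 shares a captured fragment with Grcc10, and Tfeb shares one with Pgc. Among the 16720 genes on listed captured fragments, the exact counts of Cebpa and of Cebpb were each found in 2 other genes. Those of Csf1r and Csf3r were found in 1 each, and those of Cebpe in 0.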

How the data were processed

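Promoter capture Hi-C was analysed in 6 libraries of 3 conditions. The deposited lists hold 2 fragments and a score per interaction, 1 list for each pool of 2 libraries. Per the labels' protocols, chromatin was cut with HindIII and promoters were captured by hybridisation. The build is mm10, per the submitters' processing notes. The caller behind the score is not given in the sources used here. Genes were placed on captured fragments by their start and end in GRCm38.p6. Where both ends fell on captured fragments, contacts of both were summed. The genes and lists were chosen with earlier results of these data known. The text names every contact of highest score, every contact in all 3 lists, pathway genes that differ by at least 5 contacts and the most alike gene. Shares have exact Clopper-Pearson intervals at 95%. The counting was tested on simulated lists. Python 3.11.15, pandas 2.3.3 and scipy 1.17.1 were used. The 15 RNA count tables, made with STAR 2.4.0 and HTSeq per the submitters' processing notes, were not analysed because their identifiers could not be matched to symbols. Tests planned on them were not run. The 53 ChIP-seq samples were not analysed. Of 10 alternatives, 2 were chosen after seeing the data, counting from either fragment and joining other ends within 10 kb. The percents without Cebpe were not planned either.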

Additional observations from a re-analysis of the deposited data

How the results depend on the processing

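With a score of at least 7, genes with at least 2 more contacts numbered 1 for Ery Luc against HPC, 0 for Ery shStag2 against Ery Luc and 1 for Ery shStag2 against HPC (21.9%, 23.9% and 25.4% of all genes). The share of summed contacts in Ery shStag2 turned to 43.8% against Ery Luc (14 of 32, 26.4% to 62.3%). Against HPC it turned to 40% (14 of 35, 23.9% to 57.9%). Over all contacts these were 51.9% and 49.6%. The sums of the genes rest largely on Cebpe, with shares of 38.1% (8 of 21) and 33.3% (8 of 24). Csf3r had 33.3% against Ery Luc (1 of 3). Of the Ery shStag2 contacts, 85.7% (12 of 14, 57.2% to 98.2%) were also listed in Ery Luc and 64.3% (9 of 14, 35.1% to 87.2%) in HPC. Over all contacts these were 46.8% and 42.6%. With a score of at least 10, genes with more contacts numbered 1, 0 and 0 in the same comparisons (14.2%, 17.8% and 17.3% of all genes), and those with fewer 1 for Ery Luc against HPC and 1 for Ery shStag2 against HPC (22.9% and 22.3%). The share then turned to 30% against Ery Luc (3 of 10, 6.67% to 65.2%, with 52.5% over all contacts). For Cebpb alone it was 33.3% (1 of 3). Against HPC the summed share turned to 21.4% (3 of 14, 4.66% to 50.8%, with 47.9% over all contacts). The Ery shStag2 contacts were also listed in Ery Luc in 3 of 3 cases, or 100% (29.2% to 100%, with 47.8% over all contacts). These percents rest on few contacts. With a 1.5-fold minimum, 0 genes had fewer contacts in Ery shStag2 than in Ery Luc. With other ends allowed to lie within 10 kb, 73.5% of the Ery shStag2 contacts were also listed in Ery Luc and 53.1% in HPC. With other ends within 10 kb joined, 1 gene (Csf3r, 3 against 0) had more contacts in Ery Luc than in HPC. In Ery shStag2 against Ery Luc, 2 had more, Cebpe (4 against 2) and Csf2rb (3 against 0), and 0 had fewer. Cebpb then had 3, 2 and 2 joined contacts in Ery shStag2, Ery Luc and HPC, and Csf3r had 4, 3 and 0. Neither then counted as having more in Ery shStag2 than in Ery Luc. The share of Cebpe turned to 66.7% (4 of 6) in Ery shStag2 against Ery Luc and to 57.1% (4 of 7) against HPC. The cause of these changes was not tested. For the 1.5-fold minimum and the 10 kb settings, values over all genes or contacts were not computed. Those shifts therefore cannot be set against the lists as a whole. Of the remaining values, 81 that answer a comparison stayed within 1.5 times (counts) or within their interval (shares), 125 of single genes stayed within their interval, and 9 of single genes moved in size. Among those that stayed, the share of summed contacts in Ery shStag2 against HPC, 51%, crossed to 48.9% with the start fragment only, 49.5% with each other end counted once and 49.7% from either fragment. That of Cebpa in Ery shStag2 against Ery Luc, 66.7% (2 of 3), crossed to 40% (2 of 5) with contacts between chromosomes included.

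No paired analysis was possible because each list pools its 2 libraries and the result comes from no test. Other settings for the RNA counts (DESeq2, no filter on low counts, a replicate block, compared libraries only, leaving out each replicate) were not run, since transcript identifiers could not be mapped. A list gives no value under a score of 5, so a missing contact is not an absent one. Neighbouring fragments are not independent, and depth, transduction and doxycycline cannot be told apart from HPC against Ery.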
